A study of Mus musculus with 12 samples.

Results

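The read peaks called after precipitation of Stat3 were compared by position between unstimulated -/-WT and -/-C3S mouse embryonic fibroblasts (MEFs). The -/-WT basal list held 230 summits and the -/-C3S basal list 145, together 375 of the 2136 summits in the 5 lists of the series. A summit is the base at which the signal of a read peak is highest, and summits of both lists within 200 bp of each other were counted as 1 locus. By this rule 43 loci were kept (called in both lists), 187 were lost (called in -/-WT only) and 102 were added (called in -/-C3S only). Both lines came from immortalised Stat3 fl/fl MEFs in which Cre, delivered by a retrovirus together with Thy1.1, deleted the endogenous gene. A second retrovirus with GFP then supplied the wild-type protein to -/-WT cells. To -/-C3S cells it supplied Stat3-C3S, a redox-insensitive mutant whose DNA binding domain has cysteines replaced. Each line is 1 sorted, polyclonal population, so that the Stat3 form and the line cannot be told apart. In the basal condition the cells were starved overnight in low-serum medium and received neither LIF nor peroxide. Stat3 was precipitated with 1 antibody in 2 replicates per condition, which the authors pooled before calling peaks, and the input and IgG controls in the labels are both of wild-type cells. There is therefore no replicate error on any value here. The files give no depth, but the paper reports more unique reads per library for LIF-stimulated samples than for the others. No LIF list of -/-C3S cells exists in the series. Intervals are 95% Clopper-Pearson intervals that cover counting error only, and tests compare groups of summits within or between lists and not the conditions.

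Stat3 is a transcription factor that is phosphorylated by Jak kinases after a cytokine such as LIF binds its receptor, dimerises, and binds the palindromic element TTCCNGGAA (the SIE, where N is any base) in promoters and enhancers. Stat3 also enters the nucleus in unstimulated cells, and oxidation of its cysteines alters its ability to bind DNA. LINE-1 elements, which make up a large part of the mouse genome, are retrotransposons with a pair of open reading frames, ORF1 and ORF2, and exist in many near-identical copies. A read that falls inside such a copy can often be placed at several positions equally well. A peak that was lost or added means here only that no summit was called at that position in the other list, not that no Stat3 was bound there. Nor does a called peak establish binding, as the paper holds background noise to be the likelier source of the intergenic peaks of unstimulated cells. It also reports that peaks called only in peroxide-treated -/-WT cells could be seen in peroxide-treated -/-C3S cells and in unstimulated controls.

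The lost loci that lay outside repeats are shown first, since 3 of them lay within 33 bp of summits that ranked 1st, 2nd and 5th by score in the LIF list. The windows are 161 bases centred on the -/-WT basal summit on the plus strand of mm10, at chr11:100939678-100939838 for Stat3 and chr8:84976496-84976656 for Junb, and for Osmr a stretch of 29 bases at chr15:6874330-6874358. Capitals mark the SIE, with up to 1 mismatch.
Stat3: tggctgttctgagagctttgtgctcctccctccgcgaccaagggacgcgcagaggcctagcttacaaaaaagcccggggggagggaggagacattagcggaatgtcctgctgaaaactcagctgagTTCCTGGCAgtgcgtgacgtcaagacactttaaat
Junb: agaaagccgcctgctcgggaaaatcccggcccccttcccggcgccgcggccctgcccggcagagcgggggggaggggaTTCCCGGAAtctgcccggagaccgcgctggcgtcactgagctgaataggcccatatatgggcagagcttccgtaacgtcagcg
Osmr: ggggcgggagTTACGGGAAagcgccgggg
Only the Junb window held a full SIE. The sites of Stat3 and Osmr departed from the consensus at 1 base each.

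Of the 8 added loci outside repeats, only the 2 that held a Stat3- or AP-1-type site are shown, as stretches of 29 bases around it. They were picked for these sites, do not represent the others, and had low scores (2.03 in Sema6d, 3.02 in Frk). Windows flanking added loci held an SIE with up to 1 mismatch in 7.74% and an AP-1 site in 5.46%. The window in Sema6d (chr2:124382880-124382908) held an SIE with 1 mismatch, and that in Frk (chr10:34578011-34578039) held TGANTCA, the binding element of AP-1, the dimer of Jun and Fos proteins. Capitals mark these sites.
Sema6d: ctctgagcgtTTTCTGGAAgatctgggac
Frk: agcaagattttTGAGTCAactaacacaga
The highest-scoring of the added loci outside repeats, in Olfr822, held none of the motifs searched.

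Nearly all other loci lay in repeats, and 3 windows show a sequence that kept, lost and added loci can share there. The lost and added windows are the highest-scoring of their class, whereas the kept one is second by sum of ranks and was taken because it overlaps them along the repeat. The first kept locus, near Zkscan2, lies elsewhere on it, at 4230 bases from the start of the reading frame against 3098, 3111 and 3192 for the windows shown. They are centred on the -/-WT summit of a kept locus near Rab28, which ranked 3rd and 5th by score in the 2 lists (chr5:41592417-41592577, plus strand), and on the highest-scoring lost (chr10:9987299-9987459, minus strand) and added summits (chr16:7957087-7957247, plus strand). All 3 are written along the coding strand of a LINE-1-like reading frame that is described further on. Capitals mark the longest stretch found in all 3, of 42 bases.
kept: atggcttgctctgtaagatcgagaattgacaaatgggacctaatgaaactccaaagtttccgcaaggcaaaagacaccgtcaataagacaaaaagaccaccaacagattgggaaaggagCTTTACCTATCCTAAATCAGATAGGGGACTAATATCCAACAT
lost: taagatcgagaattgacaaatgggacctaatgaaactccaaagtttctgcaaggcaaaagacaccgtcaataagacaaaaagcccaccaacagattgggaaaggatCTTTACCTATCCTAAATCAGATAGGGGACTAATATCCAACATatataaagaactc
added: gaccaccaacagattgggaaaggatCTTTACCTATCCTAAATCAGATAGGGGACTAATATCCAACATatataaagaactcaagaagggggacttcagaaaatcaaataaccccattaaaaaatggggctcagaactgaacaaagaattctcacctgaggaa
The 3 loci are on different chromosomes, so that windows holding this stretch of 42 bases were kept, lost and added at different places.

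Of the 230 summits in -/-WT, 43 were kept in -/-C3S (18.7%, 13.9 to 24.3%), and the same 43 made up 29.7% of the 145 summits in -/-C3S (22.4 to 37.8%). Where they were kept, the summits lay close together, at a median distance of 10 bp, with 34 of the 43 pairs within 20 bp and the farthest pair 51 bp apart. No other pair came nearer than 3687 bp, so that the number kept did not depend on a distance between 100 and 1000 bp, and was 42 at 50 bp. All 43 kept loci lay in windows (161 bases) that the reference marks as repeats over their whole length, against 182 of the 187 lost and 89 of the 102 added. The peaks carry numbers that run to 503 in -/-WT and 366 in -/-C3S, so that the lists hold 45.7% and 39.6% of the numbered peaks, and whether a lost or added position was among the peaks removed was not tested.

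Across each whole list, higher-scoring peaks were kept more often than lower-scoring ones. The scores are those of the same 2 lists that define the classes, and loci that share repeat sequence are not independent. The tests below therefore describe these lists only. In the -/-WT list, 29 of the 115 higher-scoring summits were kept (25.2%) against 14 of the 115 lower-scoring ones (12.2%, 2-sided Fisher's exact test, p = 0.0172, adjusted p = 0.0306 over both lists). In the -/-C3S list 28 of 74 (37.8%) and 15 of 71 (21.1%) were kept (Fisher's exact test, p = 0.0306, adjusted p = 0.0306). In -/-C3S the difference did not pass the threshold when only repeat-masked summits were counted (8.85 percentage points, Fisher's exact test, adjusted p = 0.276), a setting chosen after seeing the data, or only those on the LINE-1-like copy described further on (12.7 points, adjusted p = 0.135). Within the higher-scoring 50% of each list alone, it did not pass in either (8.26 points in -/-WT and 16.2 in -/-C3S, Fisher's exact test, adjusted p = 0.391 for both). With each list divided by score into 5 groups of equal size, the kept share went from 28.3% to 10.9% in -/-WT and from 55.2% to 13.8% in -/-C3S. Of the 10 highest-scoring summits 6 were kept, in either list.

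**Figure D1:**
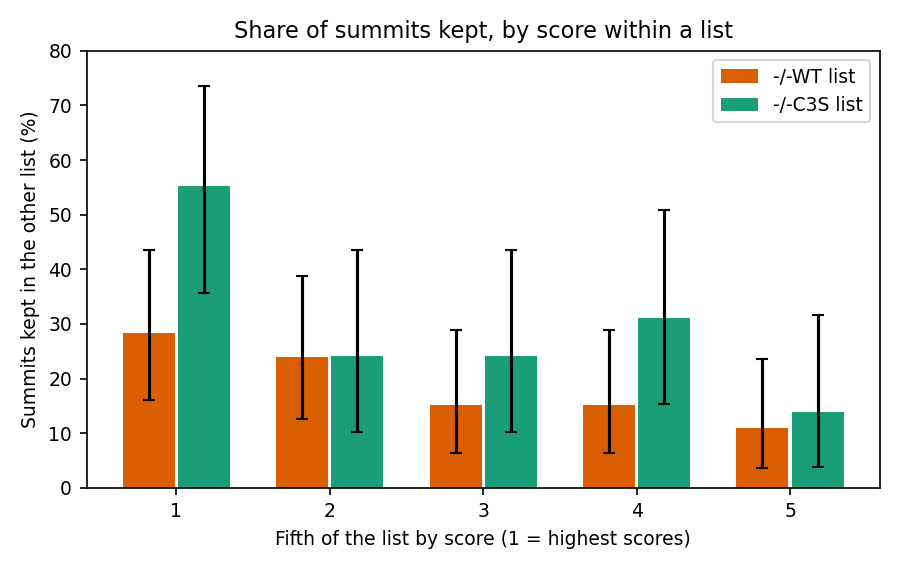
Percentage of the summits of each basal list that were kept in the other list, in 5 groups of equal size from the highest scores (1) to the lowest (5); bars are shares and lines are 95% Clopper-Pearson intervals (46 summits per group in -/-WT, 29 in -/-C3S). The highest-scoring group of the -/-C3S list has the highest share, 55.2%, and the lowest-scoring group of the -/-WT list the lowest, 10.9%.

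Within the kept loci the order of scores was similar in the 2 lists, with a Spearman's rank correlation of 0.67 over the 43 loci, given as a description since loci that share repeat sequence are not independent. The 10 kept loci with the smallest sum of ranks were mostly far from genes. The first lay on chromosome 7 at 123626740, 126 kb upstream of Zkscan2, and ranked 2nd in -/-WT and 3rd in -/-C3S. It was followed by a locus on chromosome 5 at 41592497, 35.0 kb downstream of the start of Rab28, a small GTPase gene, with ranks 3 and 5, and one on chromosome 7 at 39686638 near the pseudogene Gm2021, with ranks 6 and 4. The others were nearest to Gm24394, Gm49052, B430218F22Rik, Kdm6a (an X-linked histone demethylase gene, 18.1 kb from the start site), Lipi, Gm48417 and Nudc-ps1. Of these 10, that at Lipi, which encodes a lipase, was a promoter summit (2.86 kb upstream of a start site) and that in the pseudogene Gm48417 was exonic.

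**Figure D2:**
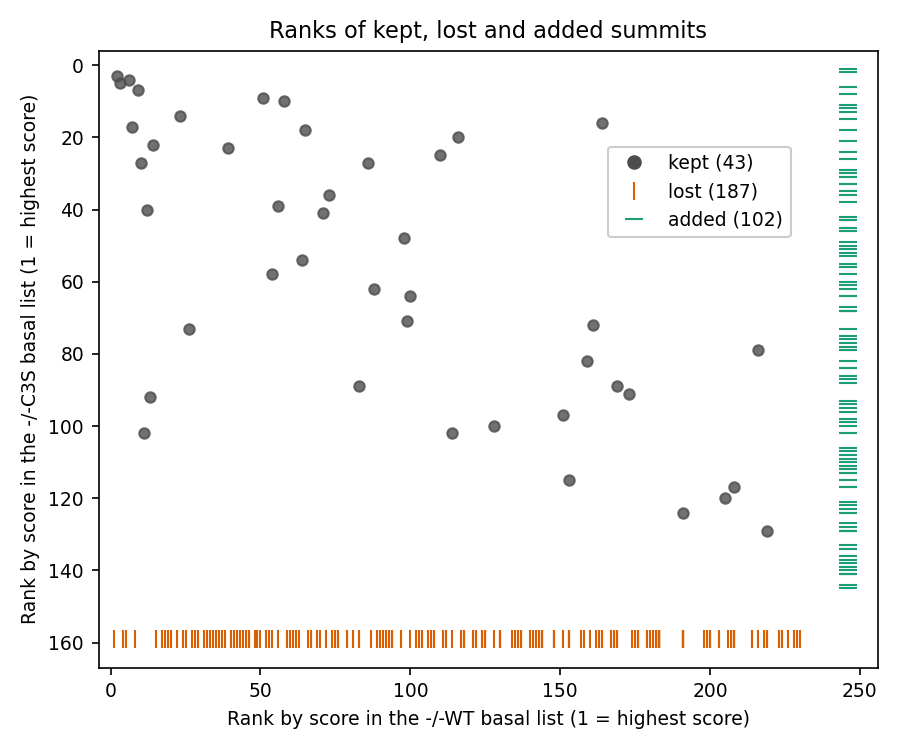
Rank by score in the -/-WT basal list (horizontal axis) and in the -/-C3S basal list (vertical axis, highest score at the top) of the 43 kept loci (points), with the ranks of the 187 lost summits as ticks along the bottom and of the 102 added summits as ticks along the right. Lost and added summits are found from the highest ranks to the lowest, and no kept locus ranks below 129 in -/-C3S.

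The highest-scoring -/-WT summit of all was lost. It lay on chromosome 10 at 9987379, in an intron of the non-coding gene Gm28905, with a score of 92.7 where the median of that list was 10.1. The next lost summits, with ranks 4, 5, 8 and 15, were nearest to Gm47756, 4930548J01Rik, Cnga2 and, at a tied rank 15, Gm28785 and Dnm3, the gene of a dynamin, in whose intron the summit lay. In -/-C3S the 2 highest-scoring summits were both added. The first was on chromosome 16 at 7957167, 87.1 kb from Gm49534, with a score of 53.1 (list median 10.7), and the second on chromosome 6 at 122222857 in an intron of the pseudogene Mug-ps1, with a score of 46.2. They were followed by summits near Gm2869 (rank 6) and Gm24774 (rank 8) and in an intron of Ptprt, a receptor phosphatase gene (rank 11). All of these windows were repeat-masked, with between 5168 and 33133 other copies in the genome at 95% identity or more. Scores are set side by side within a list only, as their unit is not stated.

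Outside repeats nothing was kept: 4 summits, all lost, came from -/-WT, and 8, all added, from -/-C3S. The -/-WT summit at Stat3 lay on chromosome 11 at 100939758, 218 bp upstream of the gene (100885098 to 100939540, minus strand), whose own product was precipitated. It ranked 48 of 230 (score 16.4), lay 33 bp from the highest-scoring LIF summit and 28 bp from a summit that ranked 203 of 450 in the -/-WT peroxide list. The nearest summits in the -/-C3S basal and -/-C3S peroxide lists were 10515 kb and 27207 kb away. The summit was thus outside the coding sequence that the retrovirus carries.

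The summit at Junb, which encodes an AP-1 subunit, lay on chromosome 8 at 84976576 and ranked 75 (score 13.0), 23 bp from the LIF summit that ranked 5th. It counted as a promoter summit by the annotation because a short transcript of Junb without a coding sequence starts 34 bp away. Seen from the coding transcript (84976910 to 84978718, minus strand), it lay 2142 bp downstream of the start site and 334 bp past the 3' end. The centre of the full SIE lay 2 bp from the summit. Neither peroxide list had a summit there, and the nearest in the -/-C3S basal list was 369 kb away.

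The summit at Osmr, the gene of the oncostatin M receptor subunit, lay on chromosome 15 at 6874359 and ranked 191 (score 6.16), 21 bp from the LIF summit that ranked 2nd. It was inside the first, untranslated exon of the coding transcripts (6813577 to 6874969, minus strand), 610 bp downstream of their start and 63 bp upstream of a shorter transcript. The window also held an AP-1 site 52 bp away, and the nearest summit of either peroxide list was 3064 kb away. The lost summit in Gpam, which encodes an enzyme of glycerolipid synthesis, was the lowest-scoring of the -/-WT list (chromosome 19, 55120240, rank 230, score 1.96). It lay in an intron, held none of the motifs and was absent from all other lists. Stat3, Junb and Osmr were the only -/-WT basal loci that were found in the LIF list, 3 of 230.

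The 8 added summits outside repeats were all low in the -/-C3S list, with ranks from 98 to 144 of 145. They made up 6 of the 13 summits that ranked below every kept locus. The highest lay on chromosome 10 at 130072066 (score 7.88) in Olfr822, an odorant receptor gene, 856 bp downstream of its first start site and upstream of a later one. The next were in introns of Bcr (chromosome 10, 75151442, score 3.87), and of Frk, a Src-family kinase gene (chromosome 10, 34578008, score 3.02). Those in an annotated exon of Plat, the tissue plasminogen activator gene (chromosome 8, 22774139, score 3.02), and in an intron of Sema6d, a semaphorin gene (chromosome 2, 124382857, score 2.03), followed. The start site nearest to the last was that of the non-coding 4930583P06Rik. At scores from 1.43 to 1.47 there were summits 1401 bp upstream of Cenpe, which encodes a kinetochore motor (chromosome 3, 135211136), 82.8 kb from Gm11924 (chromosome 4, 30349316) and 3.64 kb upstream of Tle2, a corepressor gene (chromosome 10, 81570920). None of the 8 had a summit within 200 bp in any other list. The nearest LIF summits were 33.9 kb from that in Plat and 59.4 kb from that in Bcr, with only that near Tle2 closer. Their share among added loci, 7.84% against 2.14% of lost, did not pass the test (Fisher's exact test, p = 0.0291, adjusted p = 0.349 over 12 tests), and in the higher-scoring 50% of each list the difference was in the other direction (-2.33 points).

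**Figure D3:**
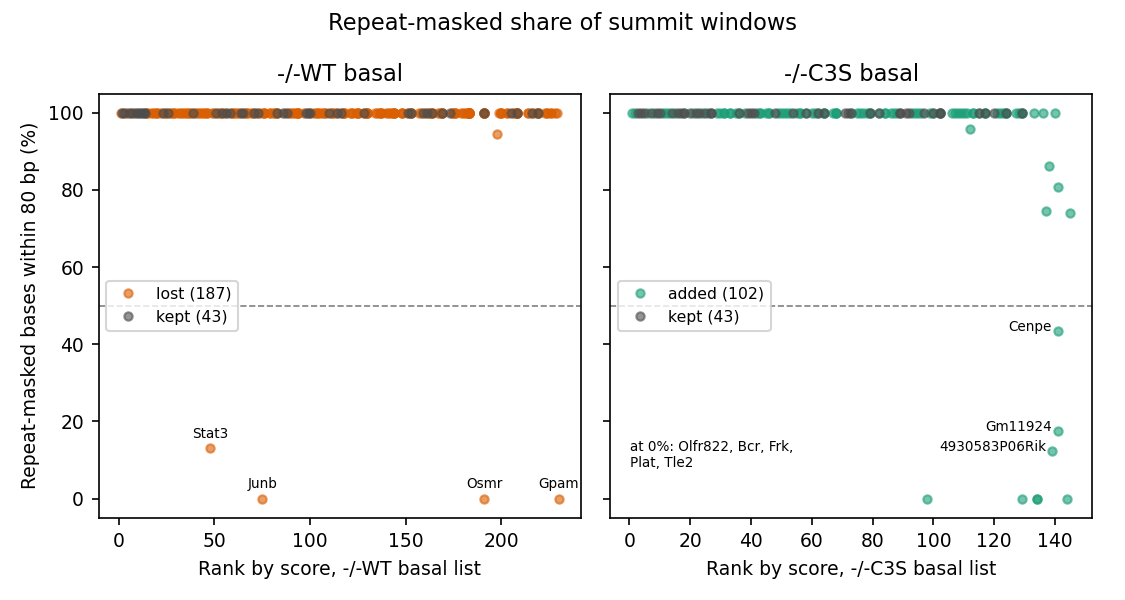
Repeat-masked share of the bases within 80 bp of each summit (vertical axis, %) against its rank by score in the -/-WT basal list (left, lost and kept) and the -/-C3S basal list (right, added and kept); the dashed line marks 50% and loci under it are named by the gene of the nearest start site. The 4 named -/-WT loci lie between ranks 48 and 230, and the 8 named -/-C3S loci between 98 and 144.

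Of the 8 added summits outside repeats, 4 were on chromosome 10, which held 13 of all 102 added summits (12.7%) against 6 of 187 lost (3.21%) and 2 of 43 kept. It held 128 of the 1088 LIF summits (11.8%), 12 of 223 in -/-C3S peroxide (5.38%) and 25 of 450 in -/-WT peroxide (5.56%), and the chromosome makes up 4.80% of the sequence searched. This chromosome was singled out after its counts were seen and was not tested.

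Most repeat loci could be placed on 1 stretch of the genome. The stretch of 16 kb that matched the most windows at 80% identity or more lay on chromosome 6 from 147895001 to 147911001. Its minus strand held an open reading frame of 1281 codons (147897797 to 147901639), preceded by one of 371 codons (147901683 to 147902795), which is the layout of a LINE-1 element. On this stretch, called the LINE-1-like copy here, 348 of the 375 windows could be placed, with a median identity of 97.5% in each of the classes. The ends of the element were not determined. Placed summits ran from -6175 to 5566 bases from the start of the long reading frame, so those farthest out may lie outside the element. Among kept loci 41 of 43 were placed, among lost 180 of 187 (96.3%) and among added 86 of 102 (84.3%, 75.8 to 90.8%). The placement was chosen after the windows had been seen, so these shares have no test.

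The summits spread over the whole of ORF2 and the stretch behind it rather than over 1 site. Of the placed loci, 34 of 41 kept (82.9%), 123 of 180 lost (68.3%) and 59 of 86 added (68.6%) lay in ORF2. Behind ORF2 lay 5 kept, 26 lost (14.4%) and 14 added (16.3%), and in ORF1 lay 1 kept, 24 lost (13.3%) and 8 added (9.30%). The median position was 2240 bases into ORF2 for kept loci, 2104 for lost and 1648 for added. Before ORF1 lay 1 kept, 7 lost and 5 added loci. The intervals of these shares overlapped between the classes. ORF2 is also much the longer reading frame (bases 0 to 3842, against -1156 to -44 for ORF1). The shares were not set against the length of each part or the number of its copies, so they show no preference for a part.

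**Figure D4:**
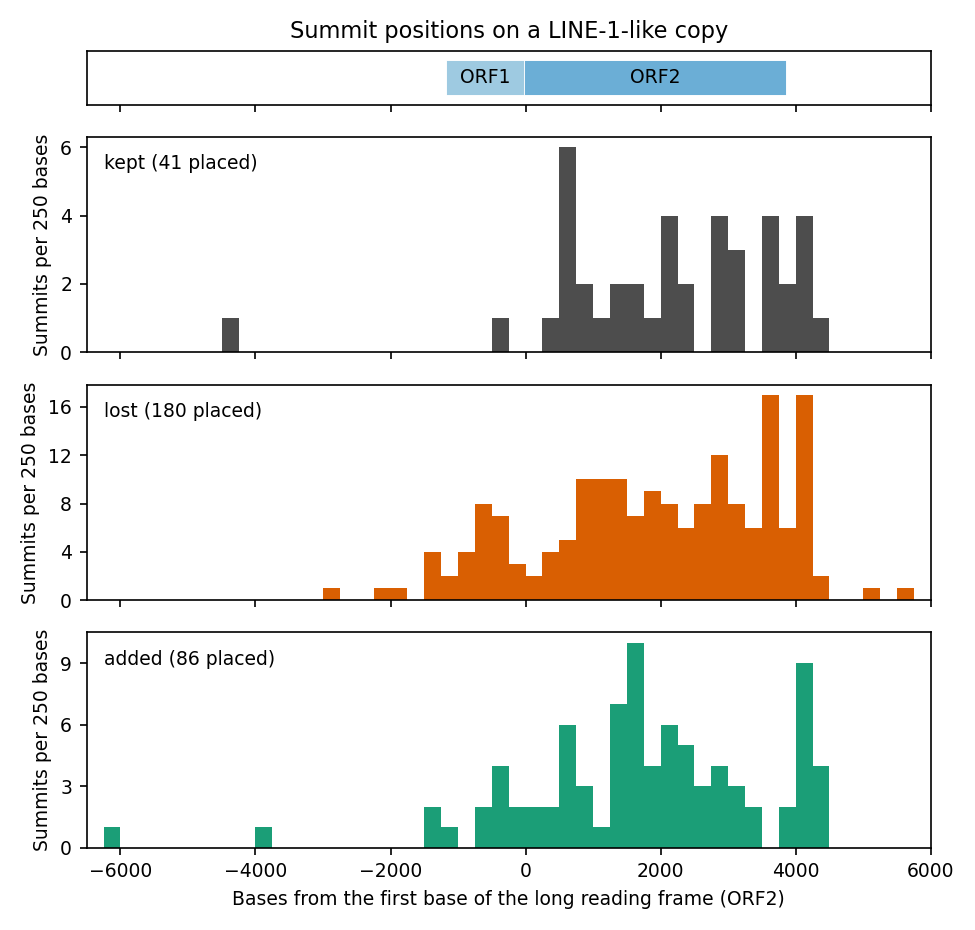
Number of -/-WT summits of kept loci, lost summits and added summits per 250 bases along a LINE-1-like copy, in bases from the first base of the long reading frame, with both reading frames drawn on top. In all 3 classes most summits lie over ORF2 and just behind it, and few lie before ORF1.

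Copies elsewhere in the genome were counted for each window at 95% identity or more over 60% of its length. The median was 12687 copies for kept loci, 12418 for lost and 11332 for added. At least 1 such copy was found for all 43 kept windows, for 183 of 187 lost (97.9%) and for 91 of 102 added (89.2%), and the share was lower among added than lost (Fisher's exact test, p = 0.00359, adjusted p = 0.0108 over 3 tests). This call ended when the -/-WT list was limited to its 145 highest-scoring summits (-7.89 points, Fisher's exact test, adjusted p = 0.0567), and in the higher-scoring 50% of each list the difference was in the other direction (2.33 points, adjusted p = 1.00). Among repeat-masked summits alone the difference was 3.19 percentage points in the same direction (Fisher's exact test, adjusted p = 0.115). The added windows without a copy were the 8 outside repeats and those in introns of Lrrk2 and Trmt11 and near Gm47768, the last 3 named after their values were seen, and none of the 11 had a score above 7.88. The lost windows without a copy were the 4 outside repeats. This comparison thus largely repeats that of non-repeat shares, which did not pass (Fisher's exact test, adjusted p = 0.349 over 12 tests). Loci that share repeat sequence are not independent, so the test describes these lists only. A window of the other list with 90% identity, at another place in the genome, was found for 154 of 187 lost (82.4%) and 82 of 102 added (80.4%, Fisher's exact test, p = 0.751). As 221 of 230 -/-WT and 127 of 145 -/-C3S windows were placed on the same LINE-1-like copy, such a match was likely for most windows. The shares therefore do not set lost or added loci apart, and kept loci were not compared in this way.

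Some added repeat loci did not belong to the LINE-1-like copy, and 1 of these, singled out after its values were seen, recurred. The added summit on chromosome 11 at 6006421, in an intron of Camk2b, a calcium-dependent kinase gene, had 65 copies. It ranked 106 in -/-C3S basal (score 7.57), 58 of 223 in -/-C3S peroxide, 410 of 450 in -/-WT peroxide and 724 of 1088 in LIF, with the other summits 3 to 6 bp away. It was the only added locus in the LIF list, and -/-WT basal was the only list without it. The added promoter locus of Arsk, an arylsulfatase gene, had 755 copies and was in no other list.

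The rule had not used the lists of stimulated cells, and presence in them was looked up next. These lists come from the same lines, so they are not an independent check, and the Stat3 form and the line stay inseparable. Loci that share repeat sequence are not independent either. The tests on presence therefore describe these lists only. Of the 43 kept loci, 29 (67.4%, 51.5 to 80.9%) were also called in -/-WT peroxide, 21 (48.8%, 33.3 to 64.5%) in -/-C3S peroxide and 17 in both, so that these 17 were found in all 4 lists other than LIF. Of the 187 lost loci, 78 (41.7%, 34.6 to 49.1%) were called in -/-WT peroxide and 32 (17.1%) in -/-C3S peroxide. Of the 102 added loci, 30 (29.4%, 20.8 to 39.3%) were called in -/-WT peroxide and 20 (19.6%, 12.4 to 28.6%) in -/-C3S peroxide. Lost loci were thus found more often in the other -/-WT list than in the other -/-C3S list (57 against 11 loci found in 1 of them only, exact McNemar test, p = 1.28e-08, adjusted p = 5.10e-08 over 4 tests). The -/-WT peroxide list is longer, with 450 summits against 223. When only its 223 highest-scoring summits were used, the difference for lost loci was 10.2 percentage points and did not pass the threshold (exact McNemar test, p = 0.0127, adjusted p = 0.0506). This length was chosen after seeing the data.

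For added loci the difference between the peroxide lists did not pass the test (18 against 8 in 1 list only, exact McNemar test, p = 0.0755, adjusted p = 0.102), and with the -/-WT peroxide list limited to the same length it was -1.96 points (adjusted p = 0.832). Of the added loci, 30 of 102 had thus been called in -/-WT cells after all, and 72 (70.6%, 60.7 to 79.2%) were in no -/-WT list. Of the lost loci, 32 were called in -/-C3S cells under peroxide, and 155 of 187 (82.9%, 76.7 to 88.0%) were in no -/-C3S list. In either peroxide list there were 38 of 102 added (37.3%) and 89 of 187 lost (47.6%, Fisher's exact test, p = 0.107, adjusted p = 0.107).

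**Figure D5:**
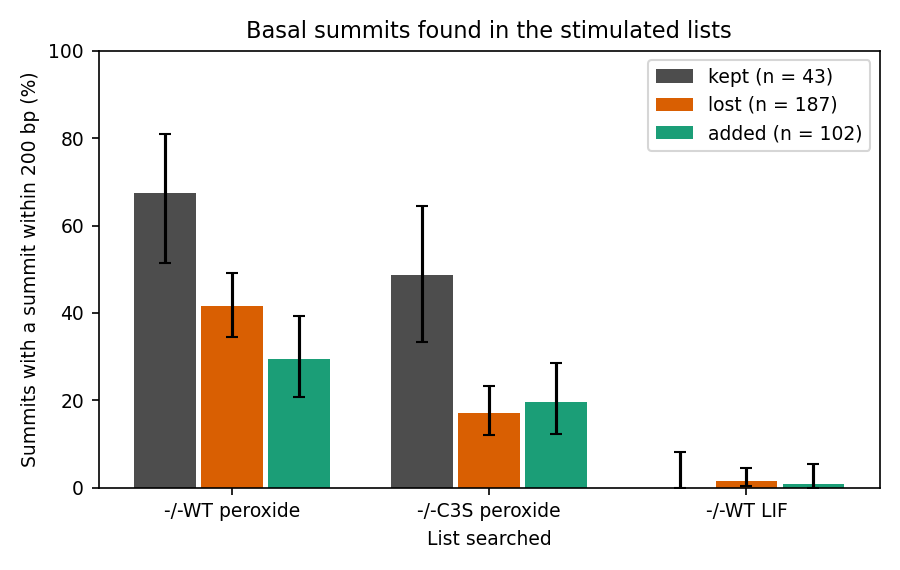
Percentage of kept, lost and added loci with a summit within 200 bp in the -/-WT peroxide, -/-C3S peroxide and -/-WT LIF lists; bars are shares and lines are 95% Clopper-Pearson intervals. Kept loci stand highest in both peroxide lists (67.4% and 48.8%), and LIF holds 0 kept, 3 lost and 1 added locus.

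Promoters, taken as 5 kb upstream to 0.5 kb downstream of an annotated start site, held 3 of 43 kept (6.98%), 14 of 187 lost (7.49%) and 10 of 102 added loci (9.80%), with no difference past the test (Fisher's exact test, adjusted p = 1.00 for each pair). Besides Lipi, the kept promoters were those of Trpc5os, antisense to the channel gene Trpc5, and of the processed pseudogene Gm47517, whose locus was in both peroxide lists. Besides Stat3, Junb and Osmr, the lost promoters were those of Olfr346, Ighv1-54 (an immunoglobulin segment) and 9 predicted genes (Gm47756, Gm43086, Gm17054, Gm9504, Gm5559, Gm45558, Gm25256, Gm13910 and Gm15243). Of these, Gm17054, Gm9504, Gm5559 and Gm13910 are processed pseudogenes. Besides Olfr822, Cenpe and Tle2, the added promoters were those of Glrx2, which encodes the mitochondrial glutaredoxin, Sult1b1, a sulfotransferase gene, Slc24a3, a cation exchanger gene, Arsk, Gm23902, Gm17631 and the processed pseudogene Gm9522. Apart from those at Stat3, Junb, Osmr, Olfr822, Cenpe and Tle2, all promoter windows were repeat-masked over their whole length. The summit at Glrx2 lay 4.63 kb upstream (chromosome 1, 143711709, rank 31) in a repeat with 13824 copies, and was also in the -/-WT peroxide list. Introns held 23.3% of kept, 21.9% of lost and 22.5% of added loci, and intergenic sequence 67.4%, 70.6% and 66.7% (Fisher's exact test, adjusted p = 1.00 for each pair).

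Promoters of 37 genes of the Stat3 pathway and of redox and metabolic control, with the genes named in the study and Thy1, were looked up in every list. In -/-WT basal 3 of them had a promoter summit (Stat3, Junb and Osmr), in -/-C3S basal 0, in -/-WT peroxide 1 (Stat3), in -/-C3S peroxide 0 and in LIF 12. Of the 21951 protein-coding genes of the annotation, 0.0273% had a promoter summit in -/-WT basal, 0.0456% in -/-C3S basal, 0.0456% in -/-WT peroxide, 0.0182% in -/-C3S peroxide and 1.62% in LIF. The genes were chosen with results of these data known, so that the counts were not tested against these shares. The other 9 of the LIF list were Socs3, the feedback inhibitor of Jak signalling, Csf1, Sbno2, Il6st, which encodes the shared receptor subunit gp130, Jak2, Bcl3, Cebpd, Pim1 and Gclm, a gene of glutathione synthesis. At Socs3 the nearest basal summit was 17029 kb away in -/-WT and 6514 kb in -/-C3S, and at Il6st 4108 kb and 2315 kb. A promoter without a called summit can still carry signal. From read tracks at Stat3, Socs3, Junb and Csf1, the paper reports basal Stat3 binding in -/-WT cells that peroxide lowered. Its discussion nevertheless sums up that unstimulated cells showed no Stat3 binding.

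The SIE was rare in both lists. It was found at 1 of 187 lost loci (Junb), at 0 of 43 kept, which allows a share of up to 6.98% if a count of 0 is taken to allow 3 (Clopper-Pearson upper limit 8.22%), and at 0 of 102 added, which allows up to 2.94% (3.55%), against 0.321% of 1867 windows flanking lost loci. With 1 mismatch allowed it was found at 2 kept, 13 lost (6.95%) and 6 added loci (5.88%). Windows flanking lost loci had it in 8.14% and those flanking added loci in 7.74%, so the loci held it no more often than their flanks. Repeat masking was 44.1% in windows flanking lost and 41.3% in those flanking added loci. Of the loci themselves, 97.3% of lost and 87.3% of added windows were masked over their whole length. The flank shares of all motifs given here therefore cannot show whether a motif was enriched at the loci. AP-1 sites were found at 1 kept, 7 lost (3.74%) and 3 added loci (2.94%), against 4.87% of the windows flanking lost and 5.46% of those flanking added loci. The motif AGGNNNAGG was found at 2 kept, 11 lost (5.88%) and 11 added loci (10.8%, Fisher's exact test, p = 0.164 for added against lost), where flanking windows had 9.69% and 10.8%. The core of the hypoxia response element, ACGTG or GCGTG, was found at 7 kept -/-WT summits (16.3%), 18 lost (9.63%) and 8 added (7.84%), against 7.02% of windows flanking lost loci. By Fisher's exact test no difference between the classes in a share of the 4 motifs passed (adjusted p = 1.00 for all 12 pairs of motif and class). Windows over repeats repeat each other's letters, so these shares do not stand for as many independent sequences.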

How the data were processed

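ChIP-seq of Stat3 was carried out in 2 replicates for each of 5 conditions. The authors mapped the reads to mm10, pooled both replicates of a condition before peak calling, and retained peaks with a depth above that of IgG. For unstimulated and LIF-stimulated -/-WT cells the paper gives this cutoff as over 2-fold. The submitters' processing notes name HISAT2, Picard and MACS2, without versions. The deposited lists give a summit and a score per peak. The unit of the score is not stated, and it was used for ranks within a list only. How reads with several equally good positions were placed is not given in the sources used here.

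Summits were annotated with GENCODE M21 on GRCm38 (patch release 6), whose coordinates mm10 shares. Repeat masking (lower-case bases of the reference), motifs (both strands; AP-1, SIE and the other motifs may overlap) and copies (BLAST 2.17.0) were scored within 80 bp of a summit. Flanking windows lay 10 to 50 kb away. Shares were compared with 2-sided Fisher's exact or exact McNemar tests, with Benjamini-Hochberg adjustment within each family (Python 3.11.15, SciPy 1.17.1, NumPy 2.4.6, matplotlib 3.10.9). Overlaps, motifs and tests were checked on simulated data.

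The loci named were all summits outside repeats (under 50% of bases masked) or in promoters, the 10 kept loci with the smallest sum of ranks, the 5 highest-scoring lost and added loci, and a list of 37 genes. Members and lists were chosen with earlier results of these data known. The input and IgG libraries were not used here. In all, 23 alternative settings were tried, 3 of them, and the placement on a LINE-1-like copy, chosen after seeing the data.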

Additional observations from a re-analysis of the deposited data

How the results depend on the processing

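No paired analysis was possible because the replicates of a condition are pooled in 1 list, and for the same reason no replicate was left out. The 36 results were recomputed under 20 alternatives and under 3 more chosen after seeing the data. Of the 828 values, 774 kept their direction and their side of the threshold or, where there was no test, stayed within the interval, and 42 changed sign, 40 of them differences that passed the threshold in neither setting. The cause of these shifts was not tested, other than that fewer summits enter the settings that leave some out. With the higher-scoring 50% of each list alone, the kept share was 25.2% in -/-WT and 37.8% in -/-C3S, and the difference in kept share by score was 8.26 points in -/-WT and 16.2 points in -/-C3S (Fisher's exact test, adjusted p = 0.391 for both). For added minus lost, the differences that changed sign there were promoters -1.62, introns -7.18, intergenic 8.80, non-repeat -2.33, AGGNNNAGG -2.63, hypoxia response element 0.404, similar window elsewhere 5.26 and another copy 2.33 points. For kept minus lost they were introns -2.61, intergenic 0.401 and AP-1 1.12, and for kept minus added promoters 0.621, intergenic -9.63, AP-1 1.40 and AGGNNNAGG 2.80.

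With the -/-WT list limited to its 145 highest-scoring summits, 21.4% of -/-C3S summits were kept, and the difference in copies between added and lost was -7.89 points (Fisher's exact test, adjusted p = 0.0567). Signs changed for introns (added minus lost -2.63, kept minus lost -2.86, kept minus added -0.226), intergenic sequence (kept minus lost 0.198), AP-1 (kept minus added 0.594) and AGGNNNAGG (kept minus lost 1.19). Summits within 50 bp gave -0.324 for intergenic sequence, kept minus added. Promoters of 1 kb either side gave -2.23 for promoters, added minus lost, and -2.78 for intergenic sequence, kept minus added. Protein-coding genes alone gave 2.51 for promoters, kept minus lost, and -1.37 for introns, kept minus added. Motifs within 150 bp gave 0.802 for AP-1 and 2.05 for the hypoxia response element, added minus lost, and 4.33 for AGGNNNAGG, kept minus lost.

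In the alternatives added later, repeat-masked summits alone gave 8.85 points for the kept share by score in -/-C3S and -3.19 points for copies, and changed the sign for promoters (kept minus lost 0.966), introns (added minus lost -0.581), intergenic sequence (kept minus added -3.83), AP-1 (kept minus added 0.198) and similar windows (added minus lost 3.08). Loci on the LINE-1-like copy alone gave 12.7 points for the kept share by score in -/-C3S (Fisher's exact test, adjusted p = 0.135) and 0 points for copies. They changed the sign for promoters (kept minus lost 1.21, kept minus added 0.340), introns (added minus lost -1.34), intergenic sequence (added minus lost 0.478, kept minus added -7.40), AP-1 (kept minus added 0.113) and similar windows, of which added loci had more than lost by 9.79 points (p = 0.0214 by Fisher's exact test) where the difference over all loci was -1.96. With the -/-WT peroxide list limited to the length of the -/-C3S one, the difference was 10.2 points for lost loci and -1.96 points for added loci. Apart from the similar windows on the LINE-1-like copy, 1 other result passed the test only under an alternative: with copies at 98% identity, kept loci had a copy more often than added ones in the -/-C3S list (12.7 points, Fisher's exact test, adjusted p = 0.0157).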
